A study of Mus musculus with 4 samples.

Results

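Esr1, Prlr, Ghr, Stat5a, Stat5b, Socs2, Cish, Bcl6 and Cux2 carry the growth hormone signal, and part of the sex steroid signal, into the genes of the mouse liver cell. These 9 genes were picked by name, as hormone receptors, the STAT5 factors, their feedback inhibitors and the STAT5-dependent repressors, out of 17543 genes in the deposited tables. All 9 were found and all 9 passed the filter on low counts. Their levels were measured by RNA sequencing in 4 livers of C57BL/6 mice, 2 from animals labelled Ezh2(K307R/K307R), which carry a point mutation in each copy of Ezh2, and 2 from wild-type animals. EZH2 is the enzyme of Polycomb repressive complex PRC2, which places the silencing mark H3K27me3 on chromatin. The study examined how gene expression in liver differs in these mutants. The mutation is given for the whole animal and not for 1 cell type. The labels give no sex, age, treatment, litter or hour of collection, and they do not say that the replicates of a genotype came from separate animals. The p-values below therefore measure the spread between these samples, which may be technical.

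Growth hormone released by the pituitary binds the receptor encoded by Ghr on liver cells and activates the kinase JAK2, which phosphorylates STAT5A and STAT5B. The STAT5 proteins pair, enter the nucleus and bind DNA with the core TTCNNNGAA. They switch on Igf1 and also Socs2 and Cish, whose products damp the same receptor. In mice and rats the hormone comes in separate pulses in males and more evenly in females, and this pattern sets most of the sex differences of liver gene expression. In mouse liver, Bcl6 is the repressor known for higher levels in males and Cux2 the one known for higher levels in females. Prlr, the receptor of prolactin, is likewise known for higher levels in female mouse liver.

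The RefSeq promoter windows of the members (GRCm38.p6, the assembly of mm10; 250 bases before to 50 after each start) show where the STAT5 core lies near these genes. The table holds 16 windows for 8 of the 9 members, Socs2 being the member without one. The core was found in 5 windows of 4 members. Over all 32851 promoter windows, 8.30% held at least 1 core and 0.457% at least 2. The core reads the same on both strands. The stretches that hold the core are shown for these 5 windows. Cish and Bcl6 carry it more than once, and their levels separated the 2 wild-type livers in opposite directions. Cux2, whose wild-type livers were further apart, had 0 cores in its windows. The Prlr and Esr1 windows lie at or near starts discussed below. A link between cores and levels was not tested. The Bcl6 stretch with 3 cores lies in a window inside the gene. NM_009744, the Bcl6 transcript in the deposited tables, starts at base 23988852 in GENCODE M21, and the window there holds 1 core. The Cish window is set at the RefSeq start, base 107296659. In GENCODE M21 the main Cish transcript, NM_009895, starts upstream of that window, at base 107296026. Both Cish cores then lie inside the gene. Capitals mark the core, and positions count from the start, which is +1 with no position 0.
Cish, chr9:107296649-107296688, plus strand, -10 to +30: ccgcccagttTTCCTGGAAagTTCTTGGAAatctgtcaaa
Bcl6, chr16:23981353-23981461, minus strand, -178 to -70: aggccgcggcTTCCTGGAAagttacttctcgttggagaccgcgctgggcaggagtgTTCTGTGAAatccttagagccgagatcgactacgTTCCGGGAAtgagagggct
Bcl6, chr16:23988952-23988980, minus strand, -128 to -100: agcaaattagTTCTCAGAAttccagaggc
Prlr, chr15:10223786-10223814, plus strand, -120 to -92: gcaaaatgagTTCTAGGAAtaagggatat
Esr1, chr10:4709960-4709988, plus strand, -198 to -170: ctggagtttcTTCTAGGAAtgctgattct

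The first Cish core and the first Bcl6 core have the same 9 letters, TTCCTGGAA. The Prlr and Esr1 cores also have the same 9 letters as each other. The narrower motif TTCCTNGAA, part of the sequence that the BCL6 protein prefers, overlaps the STAT5 core and matched 1 place each in Bcl6, Cish, Esr1 and Prlr, on the minus strand of the window in Esr1 and Prlr. It was found in 1.59% of all windows. The full oestrogen response element, an inverted repeat of GGTCA with 3 bases between, searched on both strands, was in 0 of the 16 windows and in 0.0700% of all windows. The single arm GGTCA was found in windows of Bcl6, Cish, Esr1, Stat5a and Stat5b and in 40.5% of all windows. These matches describe letters in the windows and were not measured as bound sites.

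The depth of the libraries was close to even, with summed expected counts of 18602928 and 18749610 in the Ezh2 K307R livers, against 19289715 and 20044832 in the wild-type livers. Across genes, log2 CPM (counts scaled to a common library size after TMM, a correction for library composition) correlated at 0.978 between the K307R livers, at 0.973 between the wild-type livers and at 0.942 to 0.944 between genotypes. Hepatocyte marker transcripts summed to 128828 and 131635 CPM in K307R livers, against 144718 and 137815 CPM in wild-type livers, as fits the tissue label. The genotypes also differed in sex-chromosome transcripts. Xist, the X-linked silencing RNA of female cells, had 6172 and 11201 reads in K307R livers and 6 and 6 in wild-type livers. The Y-linked genes Ddx3y, Eif2s3y, Kdm5d and Uty together had 0 and 0 reads in K307R livers and 2732 and 2551 in wild-type livers. An effect of the mutation and one of the female or male pattern of sex-chromosome transcripts cannot be told apart in any comparison between these genotypes. Of 16 clock genes tested, 5 were called higher and 3 lower in K307R livers, among them Ciart, Arntl, Nfil3 and Per2. The calls were made at an edgeR adjusted p under 0.05, by the test described below. Over all genes tested, 1.39% were called higher and 1.47% lower. Their part in the results below was not tested.

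Of the 9 members, Prlr and Stat5a were higher in K307R livers and none was lower, at a Benjamini-Hochberg adjusted p under 0.05 in edgeR's quasi-likelihood test over 12837 genes. Over all genes tested, 1.39% were called higher and 1.47% lower (2.86% either way), that is 178 and 189 genes, and 188 and 124 with total-count scaling. At an unadjusted p under 0.05, 4 members were higher and 0 lower, Stat5b and Cux2 being the other two, while 8.5% of all genes tested were higher and 8.31% lower (16.8% either way). DESeq2 called 2 members, Prlr and Stat5a (5.37% of all genes it tested), and limma-voom called 1, Prlr (2.3%). When a liver was left out, edgeR called 2 members without K307R replicate 1 (2.18% of all genes), 1 without K307R replicate 2 (1.59%), 4 without wild-type replicate 1 (5.4%) and also 4 without replicate 2 of the wild type (4.62%). Each fit with a liver left out takes its spread between replicates from the other genotype, so these calls do not measure the spread within both. With all livers, the median log2 fold change of the members was 0.42, beside 0.01 over all genes tested. The CPM of the genotypes did not overlap for 5 members, against 48.6% of all genes tested. K307R livers were above wild type for Prlr, Stat5a, Stat5b and Cux2, and below it for Esr1, while 25.2% of all genes lay above without overlap and 23.4% below. Ghr, Socs2, Cish and Bcl6 overlapped. In bulk tissue, fewer cells of a type and less RNA per cell cannot be told apart.

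**Figure D1:**
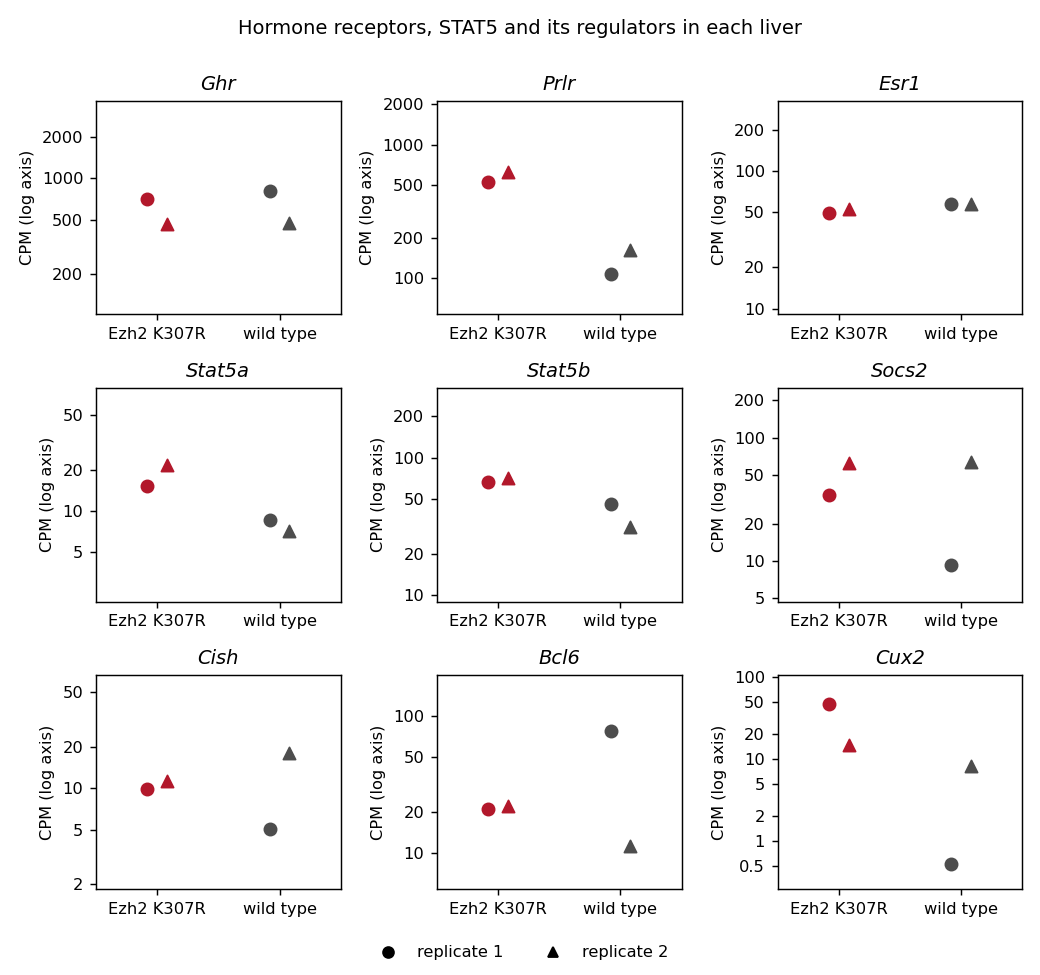
CPM (log axis, with its own range in each panel) of the 9 genes in each liver, Ezh2 K307R at left in red and wild type at right in grey, with circles for replicate 1 and triangles for replicate 2. Prlr, at 527 and 621 CPM in K307R livers against 108 and 164 CPM in wild-type livers, separates the genotypes without overlap, whereas the wild-type livers lie far apart in Socs2, Cish, Bcl6 and Cux2.

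Prlr (Entrez gene 19116, chromosome 15 from 10177238 to 10349190) is a cytokine receptor that also signals through JAK2 and STAT5. It had 527 and 621 CPM in K307R livers (9934 and 12149 reads), against 108 and 164 CPM in wild-type livers (1867 and 3467 reads). Both K307R livers were above both wild-type livers, with a gap between the genotypes larger than the spread within either. The means were 574 ± 66.8 CPM in K307R livers and 136 ± 39.7 CPM in wild-type livers (SD, n = 2 each). This was a 4.22-fold difference (log2 fold change 2.08, SE 0.28, 95% interval 1.42 to 2.73, edgeR adjusted p = 0.0122). It ranged on the log2 scale from 1.81 to 2.41 when each liver was left out in turn, and Prlr was called each time. Prlr overlaps the gene model Gm21973 on its own strand.

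The deposited tables list 3 Prlr transcripts, and their shares show which receptor form made up the higher level. The main form, NM_001253781, encodes a receptor of 310 residues with a short cytoplasmic tail. It held 76.8% and 70.9% of the Prlr counts in K307R livers, against 74.5% and 70.7% in wild-type livers. The long form of 608 residues, NM_011169, whose tail carries the STAT5-activating part in rodents, held 22.9% and 27.9% in K307R livers, against 25.5% and 28.8% in wild-type livers. The shares of both forms overlapped between the genotypes. Both forms were at a higher level per length in the K307R livers. The short form had 103.58 and 116.18 FPKM (fragments scaled to transcript length and library depth) in K307R livers, against 18.2 and 30.88 FPKM in wild-type livers. The long form had 11.63 and 17.22 FPKM in K307R livers, against 2.34 and 4.73 FPKM in wild-type livers. The remaining short form, NM_001253782, of 303 residues, held at most 1.16% in any liver. In GENCODE M21 both short forms begin at base 10223986, near the window with the STAT5 core printed above, and the long form begins upstream at base 10177655.

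Ghr (Entrez gene 14600, chromosome 15 from 3317755 to 3583352) encodes the growth hormone receptor. It had 703 and 466 CPM in K307R livers and 812 and 469 CPM in wild-type livers. Replicate 1 of each genotype was the higher, and the genotypes overlapped. No difference was called (log2 fold change -0.13, SE 0.34, 95% interval -0.91 to 0.65, edgeR adjusted p = 0.888). The interval covers changes of either sign, and the fitted value was positive without K307R replicate 2 (0.14) and without wild-type replicate 1 (0.32). Mouse Ghr also makes a short transcript by alternative splicing for the circulating growth hormone binding protein, NM_001048178 here, of 297 residues. It held 19.0% and 24.1% of the Ghr counts in K307R livers and 17.3% and 17.1% in wild-type livers. The full receptor of 650 residues held the rest. Counts favour the longer transcript, and the short one has 1335 bases against 4003. In FPKM the short transcript held 41.7% and 49.3% in K307R livers and 39.0% and 38.7% in wild-type livers. In counts, K307R livers were above wild-type livers in the share of the short transcript by 4.36 percentage points on average. A difference of the same order lay between the K307R livers themselves. With 2 livers against 2, no exact permutation p can be under 0.333, so shares were not tested.

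Esr1 (Entrez gene 13982, chromosome 10 from 4611989 to 5005633) encodes oestrogen receptor alpha, the main oestrogen receptor of the liver cell. It had 49.6 and 53.0 CPM in K307R livers and 57.3 and 57.7 CPM in wild-type livers. Both K307R livers were the lower, by a margin of a few CPM. In FPKM the genotypes overlapped, at 7.93 and 8.68 in K307R livers and 8.07 and 9.59 in wild-type livers. Esr1 was not called (log2 fold change -0.16, SE 0.18, 95% interval -0.58 to 0.25, edgeR adjusted p = 0.710). Its level was also close between livers of a genotype, at 1.07-fold between the K307R livers and 1.01-fold between the wild-type livers.

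The make-up of Esr1 differed more than its sum. Transcript NM_001302531 had 311.88 and 204.8 expected counts, or 33.4% and 19.7% of the gene, in K307R livers, and was listed in neither wild-type table. The main form NM_007956 held 54.4% and 47.0% in K307R livers, against 71.2% and 81.3% in wild-type livers. NM_001302532 held 12.3% and 33.3% in K307R livers and 28.7% and 18.6% in wild-type livers, which overlapped. Each of these transcripts encodes a protein of 599 residues in GENCODE M21, and they differ in start or exon number. NM_007956, with 9 exons, starts at base 4612021, and NM_001302532, with 10, starts close by at base 4611989. NM_001302531 starts at base 4710155, inside the gene. The Esr1 core printed above lies before that inner start. Among transcripts of genes with several, 3987 had at least 100 reads in both livers of a genotype. Of these, 35 (0.878%) were listed in neither table of the other genotype. The Esr1 transcript entered this set through the K307R livers alone, and the set holds major and minor transcripts. The share therefore does not test this case. RSEM, the counting tool, divides reads between transcripts that share sequence, and the error of that division is not in the tables.

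**Figure D2:**
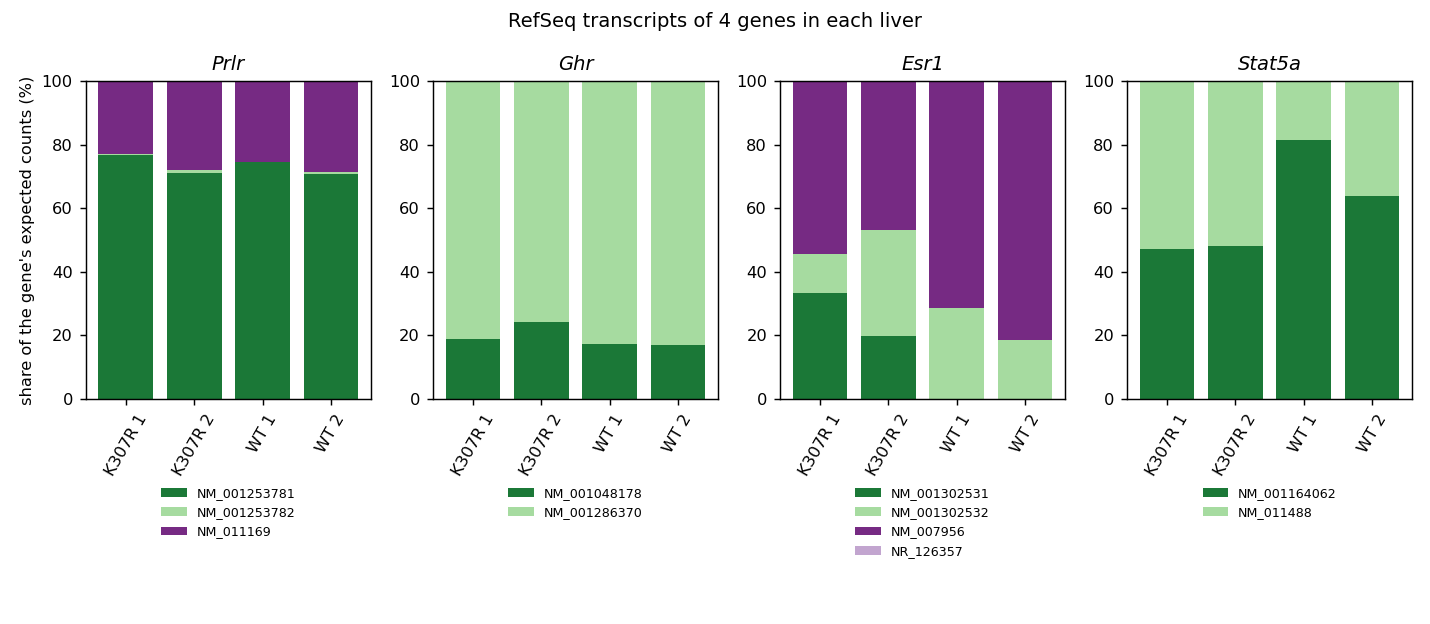
Share of each RefSeq transcript in the expected counts of Prlr, Ghr, Esr1 and Stat5a (percent, stacked to 100), 1 bar per liver, with Ezh2 K307R (K307R) left of wild type (WT). The Prlr bars look alike, NM_001302531 of Esr1 appears in the K307R bars alone at 33.4% and 19.7%, and NM_011488 of Stat5a is at 52.8% and 51.9% in K307R livers against 18.5% and 36.2% in wild-type livers.

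Stat5a and Stat5b lie next to each other on chromosome 11, from 100859351 to 100885169 and from 100780731 to 100859004, 347 bases apart and read in opposite directions. Stat5a (Entrez gene 20850) is the less abundant in liver. It had 15.2 and 21.7 CPM in K307R livers (286 and 424 reads), against 8.56 and 7.19 CPM in wild-type livers (148 and 152 reads). Both K307R livers were the higher. The means were 18.4 ± 4.61 CPM in K307R livers and 7.88 ± 0.968 CPM in wild-type livers (SD, n = 2 each). Stat5a was thus 2.34-fold higher (log2 fold change 1.23, SE 0.25, 95% interval 0.66 to 1.80, edgeR adjusted p = 0.0450). The call lay near the threshold. It was not made without K307R replicate 2 (log2 fold change 0.95, edgeR adjusted p = 0.185) or without wild-type replicate 2 (1.10, edgeR adjusted p = 0.0639), nor with limma-voom (1.21, adjusted p = 0.0619). Stat5a overlaps Stat3 on the other strand, and no source used here gives the strand setting of the counting.

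Stat5b (Entrez gene 20851) encodes the STAT5 protein on which the male pattern of mouse liver is known to depend. It had 66.2 and 70.6 CPM in K307R livers and 46.2 and 31.4 CPM in wild-type livers. Both K307R livers were above both wild-type livers. The 1.76-fold difference had a 95% interval that left out 0, but was not called after adjustment (log2 fold change 0.82, SE 0.23, 95% interval 0.29 to 1.34, edgeR adjusted p = 0.116). Without wild-type replicate 1 it was 1.12, and leaving out wild-type replicate 2 gave 0.56.

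The estimated shares of the Stat5a transcripts did not overlap between the genotypes. NM_011488, of 793 residues, held 52.8% and 51.9% of Stat5a counts in K307R livers, against 18.5% and 36.2% in wild-type livers. NM_001164062, of 797 residues and starting at base 100860484, downstream of base 100859351 where NM_011488 starts, held the rest. The K307R livers had the larger share of NM_011488, by 25.0 percentage points on average. In wild-type livers this transcript had 27.47 and 54.94 expected counts, and its share also differed between those livers. The unknown error of RSEM's division of reads applies here too, and the shares were not tested. For Stat5b, NM_001113563 held 92.7% and 75.0% in K307R livers and 78.8% and 91.4% in wild-type livers, which overlapped, and both listed transcripts encode 786 residues.

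Socs2 and Cish are feedback inhibitors that STAT5 induces within hours of a growth hormone pulse. Socs2 (Entrez gene 216233, chromosome 10 from 95383903 to 95417321), which promotes removal of the growth hormone receptor, had 34.3 and 62.4 CPM in K307R livers, against 9.32 and 63.0 CPM in wild-type livers. Wild-type replicate 1 stood apart at the low end, and wild-type replicate 2 was level with the higher K307R liver. With all livers no difference was called (log2 fold change 0.42, SE 0.70, 95% interval -1.21 to 2.04, edgeR adjusted p = 0.819). The fitted value was 2.37 without wild-type replicate 2 (edgeR adjusted p = 0.00134) and -0.38 without wild-type replicate 1 (edgeR adjusted p = 0.648), so that the direction turned on which wild-type liver was kept.

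Cish (Entrez gene 12700, chromosome 9 from 107296659 to 107302784), which blocks STAT5 docking at the receptor, had 9.92 and 11.3 CPM in K307R livers, against 5.03 and 18.2 CPM in wild-type livers. Both K307R values lay between the wild-type values. Cish was not called (log2 fold change -0.14, SE 0.49, 95% interval -1.28 to 1.0, edgeR adjusted p = 0.922). A short Cish transcript of 62 residues, NM_001317354, was listed for K307R replicate 1, at 28.0% of the counts, and for no other liver. Cish overlaps the gene models Gm17040 and Gm17041 on the other strand.

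Bcl6 (Entrez gene 12053, chromosome 16 from 23965050 to 23988866), the repressor that competes for STAT5 sites, had 21.2 and 22.1 CPM in K307R livers, against 77.5 and 11.2 CPM in wild-type livers. The K307R livers were nearly equal and lay between the wild-type livers. Bcl6 was not called either (log2 fold change -1.03, SE 0.69, 95% interval -2.64 to 0.57, edgeR adjusted p = 0.513). The fitted value was -1.85 without wild-type replicate 2 (edgeR adjusted p = 3.50e-04) and 0.95 without wild-type replicate 1 (edgeR adjusted p = 0.0642). Bcl6 overlaps Gm37419 on the other strand.

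Cux2 (Entrez gene 13048, chromosome 5 from 121857962 to 122050415), the homeodomain repressor of male-biased genes, had 46.8 and 15.0 CPM in K307R livers (882 and 294 reads), against 0.521 and 8.14 CPM in wild-type livers (9 and 172 reads). Both K307R livers were above both wild-type livers, and the livers of each genotype were far apart. The 6.97-fold difference was not called (log2 fold change 2.80, SE 0.91, 95% interval 0.70 to 4.90, edgeR adjusted p = 0.170). Its log2 size moved with each liver, to 1.77 without K307R replicate 1, 3.40 without K307R replicate 2, 1.92 without wild-type replicate 1 (edgeR adjusted p = 0.0365) and 5.87 without wild-type replicate 2 (edgeR adjusted p = 1.36e-04). Cux2 overlaps the antisense gene models Gm3970 and Gm15637.

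**Figure D3:**
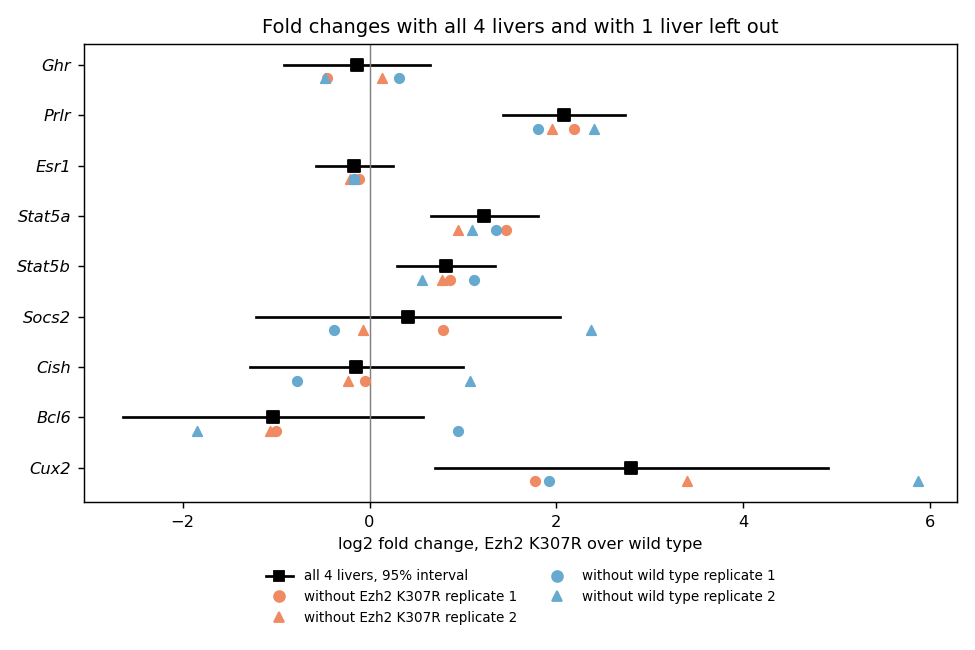
Log2 fold change of each member, Ezh2 K307R over wild type, with all 4 livers (black squares, bars for the 95% interval) and with 1 liver left out (orange for a K307R liver, blue for a wild-type liver; circles for replicate 1, triangles for replicate 2). Prlr stays between 1.81 and 2.41, whereas the blue points of Bcl6 lie at -1.85 and 0.95, on both sides of 0.

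The inhibitors Socs2 and Cish and the repressors Bcl6 and Cux2 separated the wild-type livers from each other. Of the 9 members, these 4 were more than 3-fold apart between the wild-type livers, against 2.94% of the 12837 genes tested. Between the K307R livers 1 member, Cux2, was that far apart, against 1.78% of all genes. Wild-type replicate 1 was 6.91-fold higher in Bcl6. It was lower in the other three, where wild-type replicate 2 was 6.76-fold higher in Socs2, 3.62-fold in Cish and 15.6-fold in Cux2. On the log2(CPM + 0.5) scale the difference of replicate 1 minus replicate 2 was 2.73 for Bcl6, and 23 of the 12837 genes differed by more in either direction. It was -2.69 for Socs2 (26 genes differed by more), -1.76 for Cish (99 genes) and -3.08 for Cux2 (16 genes). The receptors and STAT5 genes were closer, from 1.01-fold for Esr1 to 1.73-fold for Ghr. With 2 livers this is a difference between libraries and has no test.

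**Figure D4:**
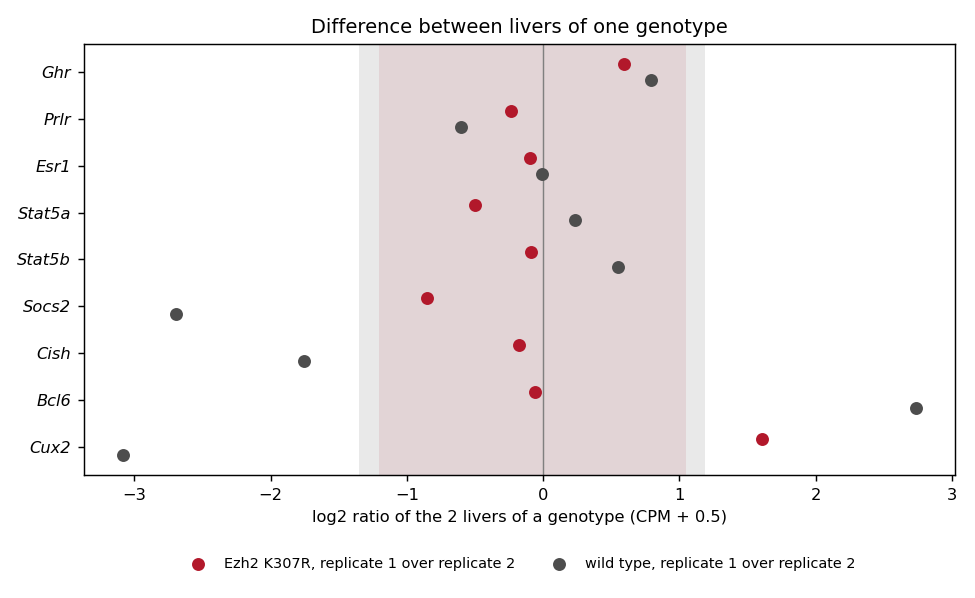
Log2 ratio of replicate 1 over replicate 2 within each genotype (CPM + 0.5), K307R in red above wild type in grey for each gene. Shaded bands run from the 1st to the 99th percentile of all genes tested, -1.20 to 1.05 in K307R livers (red) and -1.35 to 1.19 in wild-type livers (grey), and the wild-type points of Socs2, Cish, Bcl6 and Cux2 lie outside them.

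Known sex-biased liver genes moved with this split. Of 29 male-biased genes tested, 28 were higher in wild-type replicate 1 than in wild-type replicate 2 (49.3% of all genes tested were), and their summed level was 5027 and 5177 CPM in K307R livers, against 47008 and 19317 CPM in wild-type livers. Of 30 female-biased genes, 27 were higher in wild-type replicate 2 (50.7% of all genes), with a summed level of 14265 and 9513 CPM in K307R livers, against 1322 and 2973 CPM in wild-type livers. Wild-type replicate 1 thus had the higher Bcl6, the lower Cux2 and the higher male-biased sum of the wild-type pair. Between genotypes, 16 of the 30 female-biased genes were higher and 0 lower in K307R livers (median log2 fold change 3.07), led by Sult3a1, Cyp3a16, Cyp2b13 and Cyp2c38. Of the 29 male-biased genes, 15 were lower and 0 higher (median -2.90), led by Cib3, Serpina1e, C6 and Selenbp2. Over all genes tested, 1.39% were called higher and 1.47% lower. The lists were chosen with earlier results of these data known, so these counts are a description and no independent support. The male-biased count was 23 with no filter on low counts, where 4.74% of all genes were called. It also moved without wild-type replicate 2, in a fit that leaves 1 wild-type liver. The part of the female and male lists in the levels of the 9 regulators was not tested.

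Per transcript length, Ghr was the most abundant member in both genotypes, at 212 ± 45.9 FPKM in K307R livers and 204 ± 55.4 FPKM in wild-type livers (SD, n = 2 each). In K307R livers the mean FPKM then ran through Prlr (129), Socs2 (22.7), Stat5b (14.0), Esr1 (8.30), Bcl6 (6.63), Cux2 (6.29), Stat5a (4.99) and Cish (3.63). Neighbours in this order did not overlap between livers, except Bcl6 with Cux2 and Cux2 with Stat5a. In wild-type livers the order was Ghr, Prlr (28.5), Socs2 (17.1), Bcl6 (12.1), Esr1 (8.83), Stat5b (7.40), Cish (3.90), Stat5a (2.04) and Cux2 (0.900). There the values of Prlr, Socs2, Bcl6, Esr1 and Stat5b overlapped between each pair of neighbours, as did Cish and Stat5a.

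The rest of the pathway was given by lists written from textbook knowledge. For scale, edgeR called 2.86% of all genes tested, DESeq2 5.37% of those it tested and limma-voom 2.3%. At an unadjusted p under 0.05 in edgeR, 8.5% of all genes were higher and 8.31% lower. Of 8 tested JAK kinases and other STATs, 0 were called by edgeR, 0 had an unadjusted p under 0.05, and DESeq2 and limma-voom called 0 (median log2 fold change 0.02). Jak2, the kinase of the growth hormone receptor, had 17.2 and 13.0 CPM in K307R livers and 16.5 and 11.3 CPM in wild-type livers. Of 18 other SOCS proteins and inhibitors of the pathway, edgeR, DESeq2 and limma-voom called 0, and at an unadjusted p under 0.05 there was 1 higher and 1 lower (median -0.02). Socs3, the inhibitor of interleukin-6 signalling, had 3.71 and 5.37 CPM in K307R livers and 4.86 and 4.35 CPM in wild-type livers. Of 10 other cytokine receptors these tools called 0, with 1 higher at an unadjusted p under 0.05. The hormone genes Gh and Prl were not in the tables of these livers.

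Among 9 adaptors, edgeR called Irs2 higher and 0 lower, with 2 higher and 1 lower at an unadjusted p under 0.05, and DESeq2 called 2 and limma-voom 1. The shares over all genes were 2.86% called by edgeR, 5.37% by DESeq2 and 2.3% by limma-voom. Unadjusted, 8.5% of all genes were higher and 8.31% lower. Irs2, the insulin receptor substrate that JAK2 can also phosphorylate, had 17.5 and 41.6 CPM in K307R livers, against 4.74 and 2.08 CPM in wild-type livers (log2 fold change 3.13, SE 0.50, edgeR adjusted p = 0.0222). Without a liver its value ran from 2.37, without K307R replicate 2, to 3.82, without wild-type replicate 1. On log2(FPKM + 1) limma did not call it (log2 fold change 2.16, adjusted p = 0.0566).

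Of 7 genes known to be induced by growth hormone or STAT5, edgeR called 0, with 1 lower at an unadjusted p under 0.05, and DESeq2 and limma-voom called 1. That gene was Egfr, the epidermal growth factor receptor, named after its values were seen (log2 fold change -1.77, edgeR adjusted p = 0.0523). Igf1, the growth factor that mediates most effects of growth hormone on the body, had 731 and 871 CPM in K307R livers and 1137 and 817 CPM in wild-type livers. These overlapped (log2 fold change -0.29, edgeR adjusted p = 0.661). Onecut1, also induced by growth hormone, had 3.13 and 14.9 CPM in K307R livers and 3.18 and 11.2 CPM in wild-type livers, and replicate 1 was the lower in both genotypes. Of 10 other factors of sex-dependent liver expression, edgeR and limma-voom called 0 and DESeq2 called 2, with 4 higher and 1 lower at an unadjusted p under 0.05 (median 0.42). For this list and the induced genes, the shares over all genes were 2.86% called by edgeR, 5.37% by DESeq2 and 2.3% by limma-voom. Unadjusted, 8.5% of all genes were higher and 8.31% lower. Cux1, the paralogue of Cux2, had 22.9 and 23.5 CPM in K307R livers, against 38.8 and 27.6 CPM in wild-type livers (log2 fold change -0.52, edgeR adjusted p = 0.293).

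Among the other nuclear hormone receptors, Thra was higher in K307R livers. Thra, thyroid hormone receptor alpha, had 19.5 and 16.7 CPM in K307R livers, against 7.23 and 8.19 CPM in wild-type livers (log2 fold change 1.23, SE 0.21, edgeR adjusted p = 0.0276), a call not made without K307R replicate 1 (edgeR adjusted p = 0.0933). Of 8 steroid receptor coregulators, edgeR, DESeq2 and limma-voom called 0, and 0 had an unadjusted p under 0.05.

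For both called members, the most similar profiles over the 4 livers were looked for among 11813 genes with a mean of at least 1 CPM, by the Euclidean distance between centred log2(CPM + 0.5) values. The nearest to Prlr were Ildr2 (distance 0.213), Fam89a (0.233) and Lhx2 (0.264). Ildr2 had 57.6 and 82.7 CPM in K307R livers, against 13.3 and 18.8 CPM in wild-type livers. The nearest to Stat5a were Suox, which encodes sulfite oxidase (0.125), Nr1i3, which encodes the xenobiotic receptor CAR (0.126), and Wrnip1 (0.172). With 4 livers such distances rank profiles and carry no test.

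Markers of other cell types were read beside Prlr and Stat5a. The shares over all genes were 2.86% called by edgeR (1.39% higher, 1.47% lower), 5.37% by DESeq2 and 2.3% by limma-voom. Unadjusted, 8.5% of all genes were higher and 8.31% lower. Stellate cell markers were called higher for 2 of 6 (Dcn and Colec11), summing to 289 and 224 CPM in K307R livers, against 90.3 and 130 CPM in wild-type livers. Without K307R replicate 1, 0 of the 6 were called. Kupffer cell markers summed to 256 and 164 CPM in K307R livers, against 124 and 152 CPM in wild-type livers, with 0 of 6 called by edgeR, 3 higher at an unadjusted p under 0.05, 1 called by DESeq2 and 0 by limma-voom. Endothelial markers summed to 90.3 and 98.1 CPM in K307R livers and 57.6 and 78.5 CPM in wild-type livers, with 0 of 6 called by edgeR, DESeq2 and limma-voom, and 2 higher and 1 lower at an unadjusted p under 0.05. Bile duct markers summed to 32.5 and 60.4 CPM in K307R livers and 70.8 and 54.8 CPM in wild-type livers, with 0 of 6 called by these tools and 1 higher at an unadjusted p under 0.05. Of 5 red cell genes, edgeR and limma-voom called 1 and DESeq2 4. Alas2, the erythroid enzyme of haem synthesis, was the edgeR call, lower in K307R livers, while at an unadjusted p under 0.05 the 4 globin genes were higher. The median log2 fold change of the list was 0.73, and it summed to 674 and 770 CPM in K307R livers and 437 and 553 CPM in wild-type livers. B cell markers were at most 5.57 CPM and T cell markers at most 3.02 CPM in sum in any liver. The fat cell gene Adipoq was at 0 in every liver but K307R replicate 2, which had 1 read, Cidec was at 0.53 and 1.43 CPM in K307R livers and 1.04 and 1.94 CPM in wild-type livers and was not called, and Plin1 and Lep were not in the tables. Of 4 exocrine pancreas genes Cela1 was in the tables, at 5.52 and 4.25 CPM in K307R livers and 11.3 and 6.06 CPM in wild-type livers. The part of stellate and Kupffer cell transcripts in the Prlr and Stat5a results was not tested.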

How the data were processed

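Total RNA of flash-frozen livers was extracted with TRIzol and sequenced by BGI, per the labels' protocols. The tools RSEM, HISAT and Bowtie2 and the build mm10, per the submitters' processing notes, have no stated versions or roles. There was 1 deposited transcript table per liver. It held the expected counts that RSEM estimated, not normalized, and FPKM values scaled by the authors to length and depth, per the file headers. Transcripts a table did not list counted as 0, and the smallest FPKM was 0.01.

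Expected counts were summed per gene and rounded. CPM, fold changes and p-values came from edgeR 4.0.16 in R 4.3.3 (TMM factors 1.014 and 1.043 in K307R livers, 0.896 and 1.055 in wild-type livers; filterByExpr; quasi-likelihood F test with genotype as the only term and 2 residual degrees of freedom; Benjamini-Hochberg over 12837 genes, threshold 0.05). The common dispersion gave a biological coefficient of variation of 0.217. Standard errors were derived from each F value. The fit was tested on simulated data. FPKM were summed per gene for levels between genes. The counts of replicates differed beyond sampling noise (chi-square per gene over genes with at least 10 reads, 48.3 in K307R livers and 88.5 in wild-type livers), so each was kept as a sample.

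Alternatives were total-count, RLE and upper-quartile scaling, DESeq2 1.42.0, limma 3.58.1 (voom, and values of log2(FPKM + 1) or log2(FPKM + 0.1), for genes averaging 1 FPKM or more in either genotype), other filters, the replicate number as a block, a fit with neither X and Y genes nor the sex-biased and clock lists, and leaving out each liver. Without a liver, the lone sample is assumed to vary like the other genotype. The members and lists were chosen with earlier results of these data known. All members were named, and from each other list up to 4 called genes with the smallest p, the 3 genes most like each called member, and Jak2, Socs3, Cux1, Igf1 and Onecut1 for contrast. A result that this rule selects is not reported here. Symbols, coordinates and promoters came from RefSeq (GRCm38.p6), and transcript starts, overlaps and protein lengths from GENCODE M21.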

Additional observations from a re-analysis of the deposited data

How the results depend on the processing

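Prlr was higher in K307R livers and past the threshold in every setting run, and Esr1, Stat5a, Stat5b and Cux2 kept their direction in each. The number of members called, 2 with all livers, was 1 with the replicate block, with limma-voom and on log2(FPKM + 1) and log2(FPKM + 0.1), and 1 to 4 when a liver was left out. Without wild-type replicate 1 the 4 were Prlr, Stat5a, Stat5b and Cux2, and without wild-type replicate 2 they were Prlr, Socs2, Bcl6 and Cux2. Over all genes, 367 were called, against 829 with no filter, 738 with DESeq2, 163 on log2(FPKM + 1), 161 on log2(FPKM + 0.1), and 211 to 720 when a liver was left out. No cause was tested, though no filter adds genes and leaving out a liver removes samples. Cux2 was called with no filter (log2 fold change 2.81, adjusted p = 0.0151). Stat5a was not called on log2(FPKM + 1) (adjusted p = 0.0980) or log2(FPKM + 0.1) (0.0919).

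Direction turned for 4 members. Ghr was at 0.0643 on log2(FPKM + 1), 0.0647 on log2(FPKM + 0.1) and from -0.48 to 0.32 when a liver was left out. Cish was at 0.0935 with limma-voom, 0.12 on log2(FPKM + 1), 0.22 on log2(FPKM + 0.1) and from -0.78 to 1.07 when a liver was left out. Socs2 ran from -0.38 to 2.37 and Bcl6 from -1.85 to 0.95 when a liver was left out. The labels give the genotypes the same replicate numbers and nothing that pairs the livers. Deviations of same-numbered livers correlated at -0.0027, and with the replicate number as a block Cish was at 0.10 and the adjusted p of Stat5a was 0.0664. A fit with neither X and Y genes nor the sex-biased and clock lists also called Prlr (log2 fold change 2.08) and Stat5a (1.23). It left the members' own counts as they were, so little change could follow. It cannot separate the mutation from the sex-chromosome pattern or from the clock genes. With 2 livers per genotype, the intervals of Socs2, Cish, Bcl6 and Cux2 were wide. Socs2, Cish and Bcl6 had at least 87 reads in every liver, and Cux2 had 9 in wild-type replicate 1.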
